A study of Mus musculus with 32 samples.

Results

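The genes described here are 10 genes tied to glucocorticoid signalling and metal binding, measured in whole lungs of newborn mice. They are Fkbp5, Tsc22d3, Zbtb16, Sgk1, Cebpd and Pdk4, which glucocorticoids are known to induce, Nr3c1 and Hsd11b1, which encode the glucocorticoid receptor and an enzyme that makes its hormone, and the metallothioneins Mt1 and Mt2. They were taken by gene name from 19146 genes that had a symbol and a measurable probe. The set was selected on the measured levels of Fkbp5 and Mt2, which were far higher in mouse 2 of the P14 antimiR-34a group in 85% O2 than in the other 3 mice of that group. The values of that mouse are therefore a description with no test.

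Gene expression arrays with 1 colour were run on lung RNA from 32 wild-type C57Bl/6J pups of both sexes, 4 mice in each of 8 groups. Pups were killed at post-natal day (P)5 or P14, were kept in normoxia (21% O2) or hyperoxia (85% O2), and received a scrambled antimiR (the labels call it antagomiR) or antimiR-34a. Hyperoxia models bronchopulmonary dysplasia, the arrested formation of alveoli in preterm infants, and the antimiR is an oligonucleotide that binds and blocks the microRNA miR-34a-5p. In the methods, the antimiRs were injected into the peritoneum in the first days of life, and nursing dams were moved between the oxygen levels every day. Litters are not given in the sources used here, so litter mates within a group cannot be recognised. The labels give pentobarbital as the agent of killing for the younger pups and isoflurane for the older ones, whereas the methods give pentobarbital at all ages, so whether the agent differed between ages is not settled. Each slide of 8 arrays held a single age and oxygen level, with the scrambled antimiR in its first row and antimiR-34a in its second. Slide therefore cannot be told apart from oxygen or age, nor array row from antimiR.

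Glucocorticoids such as corticosterone bind the receptor in the cytoplasm, where heat shock proteins and co-chaperones hold it, and the receptor then enters the nucleus and acts on target genes. Fkbp5 encodes a co-chaperone that lowers the affinity of the receptor and is itself a target, so that it forms a negative feedback loop. Metallothioneins are small cysteine-rich proteins that bind zinc and copper. Their genes respond to zinc through the factor MTF-1, and also to glucocorticoids, to oxidants and to cytokines of the acute phase. In the developing lung, glucocorticoids speed the maturation of the gas exchange surface and are used around preterm birth.

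The promoters of the neighbouring genes Mt2 and Mt1 are shown because these genes moved together, as described below. They come from RefSeq sequence of the build GRCm38.p6, from which windows of 7 of the 10 genes were read, 14 windows in all. A window runs from 250 bases before an annotated transcription start through the first 30 transcribed bases. Capitals mark the core of the metal response element that MTF-1 is known to bind, spelled TGCACNC or TGCGCNC and read on both strands.
Mt2, chr8:94172368-94172647, plus strand: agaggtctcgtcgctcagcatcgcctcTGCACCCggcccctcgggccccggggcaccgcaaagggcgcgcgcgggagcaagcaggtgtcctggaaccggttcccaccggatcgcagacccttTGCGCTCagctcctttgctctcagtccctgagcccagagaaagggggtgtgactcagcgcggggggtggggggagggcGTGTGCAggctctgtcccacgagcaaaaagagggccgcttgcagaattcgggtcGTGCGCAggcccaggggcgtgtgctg
Mt1, chr8:94178839-94179118, plus strand: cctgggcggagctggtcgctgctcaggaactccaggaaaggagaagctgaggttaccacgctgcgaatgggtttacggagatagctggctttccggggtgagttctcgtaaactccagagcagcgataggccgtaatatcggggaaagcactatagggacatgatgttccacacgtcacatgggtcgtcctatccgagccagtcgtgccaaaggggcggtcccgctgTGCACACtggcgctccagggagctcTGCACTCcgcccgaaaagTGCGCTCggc
The windows of Mt2 and Mt1 start 6471 bases apart. The Mt2 window held 4 of these cores and the Mt1 window held 3. Among all 32851 windows of this length, 24.1% held at least 1 core and 1.73% held 3 or more. The full glucocorticoid site, AGAACA and TGTTCT with any 3 bases between them, was in 3 of the 32851 windows (0.00913%), and the window of a start of Sgk1 was among them. It is shown with that site in capitals, which ran from -189 to -175 relative to the start.
Sgk1, chr10:21993640-21993919, plus strand: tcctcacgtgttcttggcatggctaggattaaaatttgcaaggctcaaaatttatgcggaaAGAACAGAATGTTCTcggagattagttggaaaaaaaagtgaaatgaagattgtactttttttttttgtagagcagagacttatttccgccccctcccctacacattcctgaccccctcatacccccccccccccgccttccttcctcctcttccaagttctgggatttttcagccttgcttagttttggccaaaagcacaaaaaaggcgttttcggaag
None of the other windows of these 7 genes held the full site, those of Fkbp5, Tsc22d3 and Pdk4 included. A metal response core was in the window of Hsd11b1, once, and in another window of Sgk1, once. The Sgk1 window shown held the letters AGAACA 3 times counting both strands, and 17.8% of all windows held them at least once. A match in a window is a description of the letters and not of binding. The mature microRNA that antimiR-34a binds is given with its seed, bases 2 to 8, in capitals (chr4:150068473-150068494, plus strand).
mmu-miR-34a-5p: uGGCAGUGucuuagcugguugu

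A level below is the log2 processed intensity of a probe minus that array's 75th percentile, so 0 is the brightness of a fairly bright probe and a step of 1 is a 2-fold change. Levels of different genes are not compared, since each probe has its own brightness. The 10 genes had 12 probes, and each probe was well above background on each of the 32 arrays. Each gene is given on its brighter probe, which in the build mm9 lies at chr17:28536060-28536119 for Fkbp5, chr8:96704165-96704224 for Mt1 and chr8:96697371-96697430 for Mt2. The arrays name the gene of each probe but not its exon. Differences were tested with limma and the Benjamini-Hochberg adjustment over all tested probes, and a gene is said to rise or fall where the adjusted p was under 0.05. In whole lung, fewer cells of a type and less RNA per cell cannot be told apart.

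All 10 lung markers were above background on every array, and their summed level lay between 9.63 and 10.27 in the P5 mice and between 10.29 and 10.82 in the P14 mice, without overlap. Some mice carried RNA of other tissues. Mouse 4 of the P5 21% O2 scrambled group had a summed level of 5.32 for 8 skeletal muscle markers, against -0.25 to 1.83 in the other 31 mice. Mouse 3 of the P5 85% O2 antimiR-34a group reached 5.05 for 8 liver markers, against -1.08 to 0.22 in the other P5 mice, and was the dimmest array. Adipocyte markers stood between 1.64 and 5.92 at P14 in 21% O2 and between -3.42 and 1.37 at P14 in 85% O2. At P5 in scrambled mice, adipocyte markers ran from -1.06 to 1.46 in 21% O2 and from -3.23 to -2.53 in 85% O2, with 3 to 5 and 3 to 4 of the 8 above background. Skeletal muscle markers (0.85 to 5.32 against 0.03 to 0.49) and thymus markers (0.2 to 0.37 against -0.33 to -0.09) were also lower in 85% O2 there. At P5 with antimiR-34a, muscle and thymus markers again did not overlap, and adipocyte markers did. Heart muscle markers in scrambled mice at P14 ran from 6.75 to 7.55 in 21% O2 and from 5.16 to 6.42 in 85% O2. Skeletal muscle markers in the same mice ran from 1.17 to 1.83 in 21% O2 and from 0.48 to 0.9 in 85% O2. In array brightness, mouse 4 of the P14 21% O2 scrambled group and mouse 1 of the P14 21% O2 antimiR-34a group stood apart from the rest of their groups. Liver markers stood between 2.08 and 3.05 at P14 in 21% O2 and between -1.94 and -0.92 at P14 in 85% O2. The part of these tissues in the oxygen and age differences below, those at P5 of Fkbp5, Mt1, Cebpd, Pdk4, Hsd11b1 and Sgk1 included, was not tested. Mouse 4 of the P14 85% O2 antimiR-34a group had the adipocyte level of 1.37, against -3.42 to -2.81 in the rest of its group. It was also the highest of its group for red blood cell markers (9.54 against 6.94 to 8.16) and heart muscle markers (6.92 against 4.61 to 5.62), and 281 genes stood at least 2-fold above the rest in it.

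**Figure D1:**
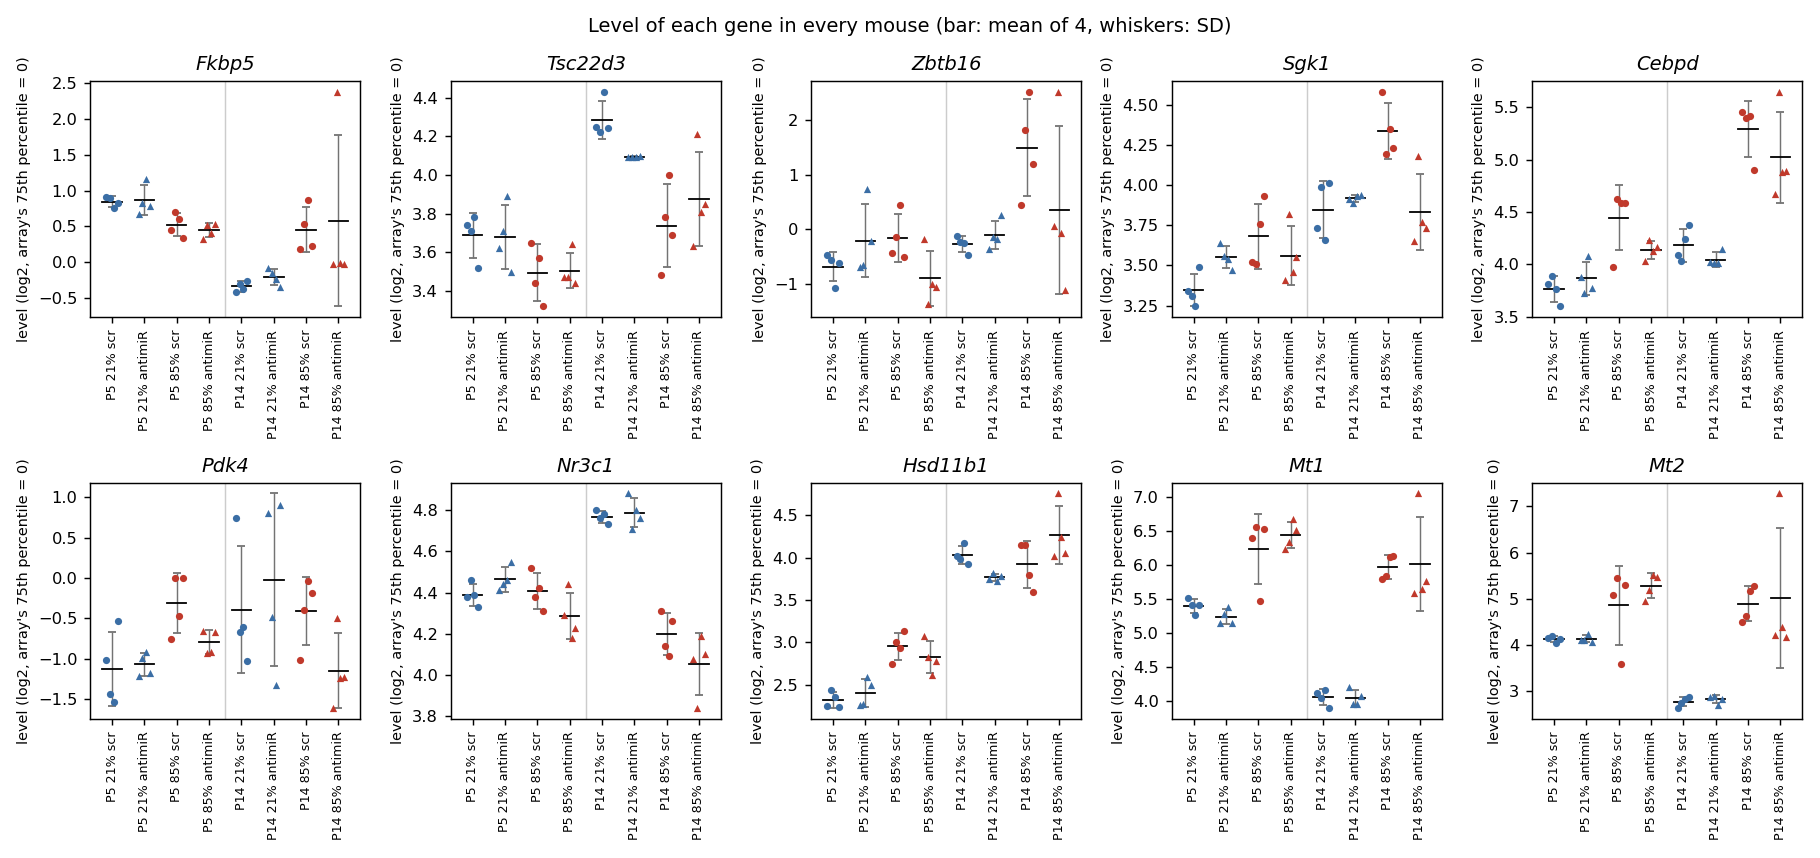
Level of the 10 genes in each of the 32 mice (y axis, log2 intensity, where 0 is the array's 75th percentile) by group (x axis). Blue is 21% O2, red is 85% O2, circles are scrambled antimiR, triangles are antimiR-34a, bars are means and whiskers SD of 4 mice. The mean levels of Mt1 and Mt2 are higher in red than in blue at both ages, mouse 3 of the P5 85% O2 scrambled group is at 3.58 for Mt2, below the blue mice of that age, and mouse 2 of the last group is at 2.38 for Fkbp5 and 7.28 for Mt2.

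The metallothioneins had the largest oxygen differences of the 10 genes in scrambled mice at P14, and both were higher in 85% O2. In scrambled mice at P14, Mt2 stood at 2.63, 2.75, 2.83 and 2.86 in 21% O2 and at 4.50, 4.63, 5.16 and 5.27 in 85% O2. The groups did not overlap, and Mt2 rose by 2.12 on the log2 scale, 4.35-fold (95% confidence interval of the log2 difference 1.01 to 3.23, limma adjusted p = 0.00285). Mt1 stood at 4.12, 4.05, 4.17 and 3.90 in 21% O2 and at 5.8, 5.84, 6.12 and 6.13 in 85% O2. It rose by 1.91, 3.76-fold (1.39 to 2.44, limma adjusted p = 1.73e-05), again without overlap. Liver markers were on the other side of this comparison, at 2.2 to 3.05 in 21% O2 and -1.72 to -1.21 in 85% O2.

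At P5 the metallothioneins were also higher in 85% O2, with a mouse that went against its group. In scrambled mice, Mt1 stood at 5.51, 5.42, 5.26 and 5.42 in 21% O2 and at 6.39, 6.56, 5.47 and 6.53 in 85% O2. It rose by 0.83, 1.78-fold (0.43 to 1.24, limma adjusted p = 0.00286), although mouse 3 of the 85% O2 group lay within the 21% O2 range. In the same mouse Mt2 was 3.58, below all 4 mice in 21% O2 (4.03 to 4.2), while the other 3 mice in 85% O2 stood at 5.08, 5.45 and 5.30. With all mice Mt2 differed by 0.73 and did not pass the test (limma adjusted p = 0.0618). Without mouse 3 of the 85% O2 scrambled group the difference was 1.15 and passed (limma adjusted p = 2.07e-05).

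In antimiR-34a mice at P5 the metallothioneins did not overlap between oxygen levels. Mt1 stood between 5.15 and 5.39 in 21% O2 and at 6.24, 6.34, 6.67 and 6.51 in 85% O2, a rise of 1.2 (0.79 to 1.6, limma adjusted p = 0.000165). Mt2 stood between 4.07 and 4.24 in 21% O2 and at 4.94, 5.19, 5.51 and 5.48 in 85% O2, a rise of 1.15 (0.51 to 1.78, limma adjusted p = 0.00609). Mouse 3 of the 85% O2 group, which carried the liver markers, was the highest of its group for both genes. Without that mouse Mt1 rose by 1.12 and Mt2 by 1.07, and both still passed (limma adjusted p = 6e-04 and 0.0159).

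The oxygen difference of Mt1 was larger at P14 than at P5. In scrambled mice the oxygen difference at P14 exceeded that at P5 by 1.08 (0.42 to 1.74, limma adjusted p = 0.00887, test of the interaction). For Mt2 the same value was 1.39 and did not pass (limma adjusted p = 0.0734). The spread in that fit included mouse 2 of the P14 85% O2 antimiR-34a group. In a fit without that group the Mt2 value was still 1.39 and passed (limma adjusted p = 0.00382).

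With age the metallothioneins fell in 21% O2, and their differences in scrambled mice in 85% O2 did not pass the test. In scrambled mice in 21% O2, Mt1 fell by 1.34 (limma adjusted p = 2.41e-05) and Mt2 fell by 1.36 (limma adjusted p = 0.0115) from P5 to P14. In antimiR-34a mice in 21% O2 they fell by 1.19 for Mt1 (limma adjusted p = 7.51e-05) and by 1.31 for Mt2 (limma adjusted p = 0.0126). In scrambled mice in 85% O2 the age difference was -0.26 (-0.73 to 0.20) for Mt1 and 0.04 (-0.86 to 0.94) for Mt2, and neither passed. The spread in that fit again included mouse 2 of the P14 85% O2 antimiR-34a group. In antimiR-34a mice in 85% O2 the age difference is a description. It was -0.42 for Mt1 and -0.26 for Mt2 with mouse 2 of the P14 group, and -0.77 and -1.02 without it, when the ages did not overlap. The order of Mt2 levels ran from 5.28 ± 0.27 (SD, n = 4) with antimiR-34a in 85% O2 at P5 down to 2.77 ± 0.10 (SD, n = 4) with scrambled antimiR in 21% O2 at P14. The 4 groups in 85% O2 held the first 4 places. The P14 antimiR-34a group ran from 4.18 to 7.28 with mouse 2. Without that mouse it ran from 4.18 to 4.38 (mean 4.26), below all mice of the P14 85% O2 scrambled group and of the P5 85% O2 antimiR-34a group, and overlapped the P5 85% O2 scrambled group and both P5 21% O2 groups. The P14 21% O2 groups held the last places, with overlapping ranges of their own.

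A second, dimmer Mt1 probe gave the oxygen rise but not the fall with age. It rose by 1.38 at P5 and by 1.65 at P14 in scrambled mice (limma adjusted p = 0.0018 and 0.0143), and by 1.51 at P5 in antimiR-34a mice (limma adjusted p = 0.000864). From P5 to P14 in 21% O2 it differed by 0.31 (-0.60 to 1.22) in scrambled mice and by -0.34 (-1.25 to 0.57) in antimiR-34a mice, and neither passed. Nor did its oxygen difference change with age by the test, at 0.27 (-1.01 to 1.55, limma adjusted p = 0.758). The fall of Mt1 with age and the interaction thus rest on the brighter of the 2 probes, and Mt2 had a single probe.

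**Figure D2:**
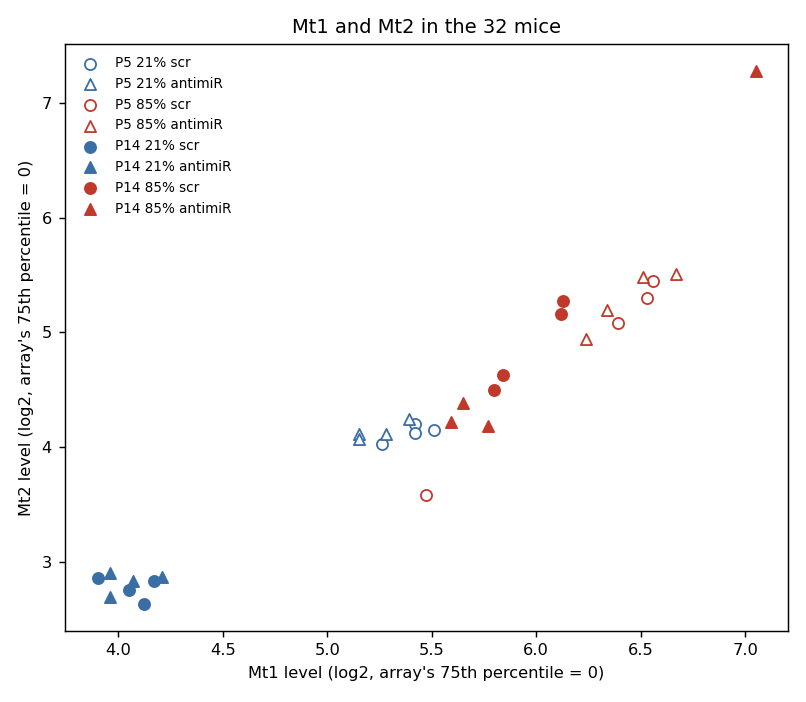
Level of Mt2 (y axis) against that of Mt1 (x axis) in the 32 mice, both on the log2 scale where 0 is the array's 75th percentile. Open symbols are P5 and filled ones P14, blue is 21% O2 and red 85% O2, circles are scrambled antimiR and triangles antimiR-34a. The open red circle at an Mt1 level of 5.47 is mouse 3 of the P5 85% O2 scrambled group, and the filled triangle at 7.05 is mouse 2 of the P14 85% O2 antimiR-34a group.

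Mt1 was also the gene of the set most like Mt2 from mouse to mouse. Over the 28 mice outside the P14 85% O2 antimiR-34a group, deviations of Mt1 and Mt2 from their group means correlated with r = 0.92 and rho = 0.8. Without the 2 mice farthest from the middle for Mt2, mice 2 and 3 of the P5 85% O2 scrambled group, r was 0.8. The r of Mt2 with the other members lay between -0.25 and 0.18. Among 19041 genes outside the set, the 5 most like Mt2 were N28178 (r = 0.83), Gm10405 (r = 0.81), Mtf1 (r = 0.8), Rspo4 (r = 0.77) and 9030625G05Rik (r = 0.76). Mtf1 encodes the metal-sensing factor itself. Without those mice r was 0.49 for N28178, 0.72 for Gm10405, 0.56 for Mtf1, 0.61 for Rspo4 and 0.58 for 9030625G05Rik, so the order did not hold. The genes of a mouse share an array and its brightness, so these values are descriptions.

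Of 8 other zinc and metal handling genes, 1 was higher and 3 were lower in 85% O2 in scrambled mice at P14, where 28.2% of all probes were higher and 32.7% lower. Slc39a14, a zinc importer known from the acute phase response, rose by 1.52 (limma adjusted p = 0.000165). Slc39a10, another importer, fell by 1.00 (limma adjusted p = 0.000318), and Slc30a1, the exporter that moves zinc out of the cell and is a known MTF-1 target, fell by 0.46 (limma adjusted p = 0.000632). At P5, Slc39a10 rose by 0.47 and Slc39a8 by 0.23 in scrambled mice (limma adjusted p = 0.0302 and 0.0105), and none fell, where 17.4% of all probes were higher and 26.5% lower. With antimiR-34a at P5, 1 was higher and 1 lower, against 17.1% and 29.5% of all probes. Slc39a10 rose by 0.57 (limma adjusted p = 0.01), and the metallothionein gene Mt4 fell by 0.65 (limma adjusted p = 0.0256). In 85% O2 the Mt4 probe was above background on 3 of the 4 arrays. The median log2 oxygen difference of the 8 was -0.22 at P14 and 0.12 at P5 in scrambled mice, against -0.07 over all probes at each age.

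Fkbp5 fell with oxygen at P5, and its oxygen difference was positive but did not pass the test at P14. At P5 in scrambled mice it stood at 0.91, 0.90, 0.76 and 0.82 in 21% O2 and at 0.45, 0.70, 0.61 and 0.34 in 85% O2. It fell by 0.32 (-0.54 to -0.10, limma adjusted p = 0.0196), and in antimiR-34a mice it fell by 0.42 (-0.63 to -0.20, limma adjusted p = 0.00423), with no overlap between oxygen levels in either. The first of these falls was lost without mouse 4 of the P5 85% O2 scrambled group (-0.26, limma adjusted p = 0.0649). At P14 in scrambled mice Fkbp5 stood at -0.42, -0.30, -0.37 and -0.26 in 21% O2 and at 0.19, 0.53, 0.87 and 0.23 in 85% O2. All mice in 85% O2 were higher, by a mean of 0.79, but this did not pass (-0.09 to 1.68, limma adjusted p = 0.109). The fit takes its spread from all P14 groups, mouse 2 of the antimiR-34a group in 85% O2 included. Without that mouse the same difference passed (limma adjusted p = 0.000126), as it did in a fit without the whole group (limma adjusted p = 0.000459). It also passed by the methods' t-test (adjusted p = 0.0309) and with only the compared groups in the fit (limma adjusted p = 0.00271).

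The change of the Fkbp5 oxygen difference with age passed the test of the interaction, at 1.12 (0.22 to 2.02, limma adjusted p = 0.0433). The call is close to the threshold. It was lost when any of 13 single arrays was left out (limma adjusted p from 0.0525 to 0.0919), which were all 4 mice of both 21% O2 scrambled groups, mice 1, 3 and 4 of the P5 85% O2 scrambled group and mice 2 and 3 of the P14 85% O2 scrambled group. It was also lost with the normexp background correction and with no filter on dim probes (limma adjusted p = 0.0616 and 0.0587). In the fit without the P14 85% O2 antimiR-34a group the adjusted p was 1.92e-05. Like the metallothioneins, Fkbp5 fell with age in 21% O2. Fkbp5 fell by 1.19 from P5 to P14 in scrambled mice (limma adjusted p = 0.00243) and by 1.06 in antimiR-34a mice (limma adjusted p = 0.00489). In scrambled mice in 85% O2 it differed by -0.07 (-0.71 to 0.57) and did not pass, in a fit whose spread included the P14 85% O2 antimiR-34a group. The highest mean levels were those of the P5 21% O2 groups, 0.86 ± 0.21 with antimiR-34a and 0.85 ± 0.07 with scrambled antimiR (SD, n = 4), which overlapped in range, and the lowest was -0.34 ± 0.07 (SD, n = 4) with scrambled antimiR in 21% O2 at P14.

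Tsc22d3, which encodes the anti-inflammatory leucine zipper protein GILZ, fell with oxygen at P14 and rose with age in 21% O2, where Fkbp5 fell. In scrambled mice at P14 it stood at 4.25, 4.22, 4.43 and 4.24 in 21% O2 and at 3.48, 3.78, 4.00 and 3.69 in 85% O2, without overlap, and it fell by 0.55 (limma adjusted p = 0.00141). Liver and adipocyte markers were lower in 85% O2 in the same comparison, at -1.72 to -1.21 against 2.2 to 3.05 and at -3.3 to -2.89 against 1.75 to 5.27. At P5 it differed by -0.19 (-0.39 to 0.01) in scrambled mice and by -0.17 (-0.38 to 0.03) in antimiR-34a mice, and neither passed. From P5 to P14 in 21% O2 it rose by 0.60 in scrambled mice (limma adjusted p = 6.3e-05) and by 0.42 in antimiR-34a mice (limma adjusted p = 0.00203). In scrambled mice in 85% O2 its age difference was 0.24 (0.02 to 0.46) and did not pass (limma adjusted p = 0.0771). With array weights it was 0.29 and passed (limma adjusted p = 0.0166). The change of the oxygen difference from P5 to P14 was -0.36 (-0.67 to -0.04), which did not pass (limma adjusted p = 0.0662). It passed under other settings, among them quantile normalization, at -0.47 (limma adjusted p = 0.0104), and normexp, at -0.42 (limma adjusted p = 0.0313). It also passed with the replicate number as a block (limma adjusted p = 0.0412) and when any of 3 single arrays was left out (limma adjusted p from 0.0219 to 0.0393). The call thus depends on the setting.

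Zbtb16, which encodes the transcriptional repressor PLZF, varied widely within groups. In scrambled mice at P14 it stood at -0.12, -0.23, -0.24 and -0.46 in 21% O2 and at 0.45, 1.82, 2.51 and 1.19 in 85% O2. It rose by 1.75, 3.37-fold (0.49 to 3.02, limma adjusted p = 0.0194), and the groups did not overlap. Without mouse 3 of the P14 85% O2 scrambled group it differed by 1.41 and did not pass (limma adjusted p = 0.0642). Nor did it pass by the methods' t-test (adjusted p = 0.0522). The spread of the limma fit included mouse 2 of the P14 85% O2 antimiR-34a group. In a fit without that group, an alternative chosen after seeing the data, Zbtb16 rose by 1.75 (limma adjusted p = 0.00129). At P5 the oxygen difference was 0.52 (-0.16 to 1.21) in scrambled mice and -0.69 (-1.37 to -0.01) in antimiR-34a mice. Neither passed, with limma adjusted p of 0.2 and 0.0909. With 1 array left out the latter ran from -0.93 to -0.38. It was -0.93 and passed without mouse 1 of the P5 85% O2 antimiR-34a group (limma adjusted p = 0.028), and -0.38 without mouse 3 of the P5 21% O2 antimiR-34a group (limma adjusted p = 0.292), which stood at 0.73 against -0.69 to -0.21 in the rest of its group.

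Sgk1, a kinase that regulates epithelial sodium channels, and Cebpd, a transcription factor of the acute phase, both rose with oxygen in scrambled mice at both ages. At P5 Sgk1 stood at 3.34, 3.31, 3.25 and 3.49 in 21% O2 and at 3.52, 3.51, 3.76 and 3.93 in 85% O2. It rose by 0.33 at P5 (limma adjusted p = 0.0194) and by 0.49 at P14 (limma adjusted p = 0.00314), with no overlap. The P5 value lost its call without mouse 3 of the 21% O2 scrambled group or without mouse 3 or mouse 4 of the 85% O2 scrambled group (limma adjusted p between 0.0534 and 0.0654). Cebpd stood at 3.81, 3.89, 3.77 and 3.60 in 21% O2 and at 3.98, 4.63, 4.59 and 4.59 in 85% O2 at P5, a rise of 0.68 (limma adjusted p = 0.000736). At P14 it stood at 4.09, 4.03, 4.24 and 4.38 in 21% O2 and at 5.46, 5.4, 5.42 and 4.9 in 85% O2, a rise of 1.11 (limma adjusted p = 0.00014). In antimiR-34a mice at P5 the oxygen difference was 0.01 (-0.22 to 0.23) for Sgk1 and 0.27 (0.00 to 0.55) for Cebpd, and neither passed. The difference between antimiRs was tested as an interaction at P5 and did not pass for either, at -0.33 (-0.64 to -0.01) for Sgk1 and -0.41 (-0.80 to -0.02) for Cebpd, with limma adjusted p of 0.447 and 0.437.

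Sgk1 and Cebpd also rose with age. In 21% O2 Sgk1 rose by 0.5 in scrambled mice and by 0.36 in antimiR-34a mice (limma adjusted p = 0.000712 and 0.00808). Cebpd rose by 0.42 in scrambled mice in 21% O2 (limma adjusted p = 0.0326). That call was lost without mouse 3 or 4 of either scrambled group in 21% O2 (limma adjusted p from 0.0554 to 0.102). In antimiR-34a mice in 21% O2 Cebpd differed by 0.18 (-0.15 to 0.51) and did not pass.

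Pdk4, a kinase that turns cells from glucose to fat oxidation, varied mainly within groups. In scrambled mice at P5 it rose by 0.83 in 85% O2 (0.38 to 1.27, limma adjusted p = 0.00516), with overlap, because mouse 4 of the 21% O2 group stood at -0.53 and the other 3 between -1.53 and -1.02. That is the mouse with the skeletal muscle markers, and without it Pdk4 rose by 1.02 (limma adjusted p = 0.000635). At P14 in 21% O2, Pdk4 was 0.75 in mouse 1 of the scrambled group and 0.81 and 0.90 in mice 1 and 4 of the antimiR-34a group, against -1.32 to -0.48 in the other 5 mice. The same 3 mice had adipocyte marker levels of 5.27, 5.92 and 5.38, against 1.64 to 3.18 in the other 5. The part of these cells in the Pdk4 levels was not tested. Pdk4 rose with age by 1.05 in antimiR-34a mice in 21% O2 (limma adjusted p = 0.0226), and this was lost without mouse 1 (0.77) or mouse 4 (0.74) of the P14 21% O2 antimiR-34a group.

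**Figure D3:**
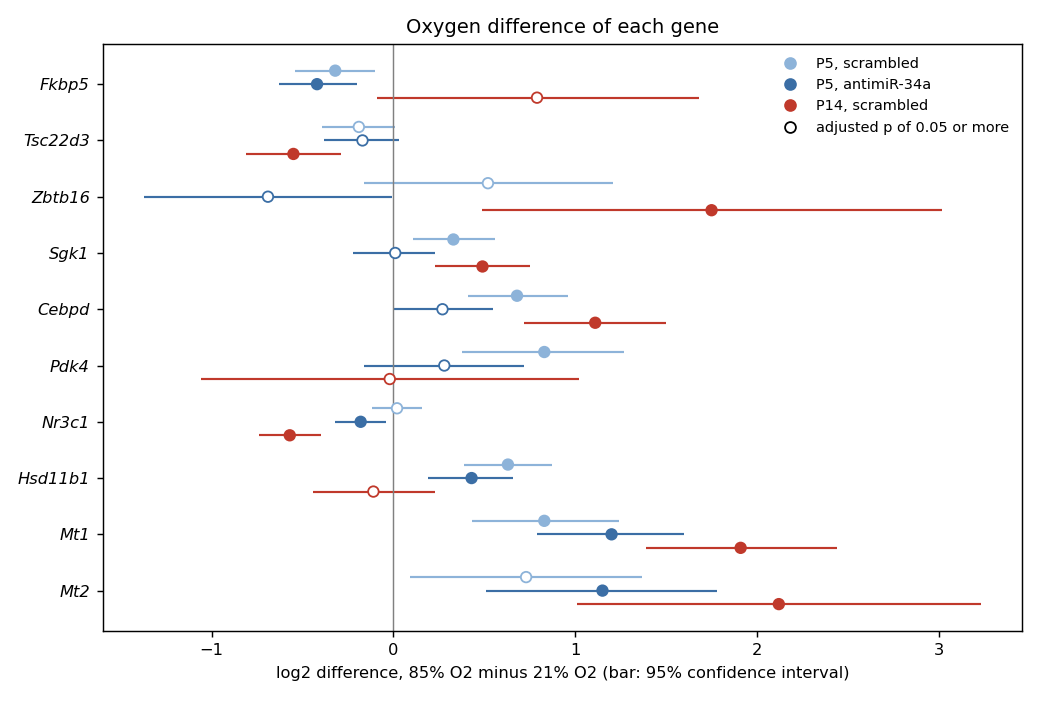
Log2 difference between 85% O2 and 21% O2 (x axis) for each of the 10 genes (y axis), at P5 with scrambled antimiR (light blue), at P5 with antimiR-34a (dark blue) and at P14 with scrambled antimiR (red). Bars are 95% confidence intervals, filled points passed the test and open points did not. Mt2 at P14 is at 2.12, Fkbp5 is below 0 at P5 and at 0.79 at P14, and Nr3c1 at P14 is at -0.57 on its brighter probe.

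Hsd11b1 encodes the enzyme that turns the inactive 11-dehydrocorticosterone into corticosterone within cells. In 21% O2 it had the largest rise with age of the 10 genes. In scrambled mice in 21% O2 it stood at 2.25, 2.43, 2.35 and 2.23 at P5 and at 4.02, 3.99, 4.18 and 3.93 at P14, a rise of 1.71, 3.27-fold (1.43 to 1.99, limma adjusted p = 2.94e-10). Liver markers were also higher at P14 in these mice, at 2.2 to 3.05 against -0.98 to -0.74. At P5 it stood higher in 85% O2, at 2.74, 3.00, 2.93 and 3.13 in scrambled mice, a rise of 0.63 (limma adjusted p = 0.000419), and rose by 0.43 in antimiR-34a mice (limma adjusted p = 0.00587). At P14 the oxygen difference in scrambled mice was -0.11 (-0.44 to 0.23) and did not pass. The difference between the ages passed, at -0.74 (-1.14 to -0.34, limma adjusted p = 0.00366). In scrambled mice in 85% O2 the rise with age was 0.97 (limma adjusted p = 3.26e-06), while the liver markers were at -0.88 to -0.46 at P5 and -1.72 to -1.21 at P14. The order of mean levels ran from 4.27 ± 0.34 (SD, n = 4) with antimiR-34a in 85% O2 at P14 to 2.32 ± 0.09 (SD, n = 4) with scrambled antimiR in 21% O2 at P5, and each P14 mouse was above each P5 mouse.

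Nr3c1, the receptor gene, gave opposite results on its 2 probes. On the brighter probe (mm9, chr18:39571641-39571700, minus strand), it stood at 4.8, 4.76, 4.78 and 4.73 at P14 in scrambled mice in 21% O2 and at 4.31, 4.14, 4.09 and 4.26 in 85% O2. It fell by 0.57 (-0.74 to -0.40, limma adjusted p = 3.07e-05). On the dimmer probe (chr18:39574183-39574242), which lies nearer the start of the gene, the same groups stood between -0.22 and 0.17 and between 0.33 and 0.85, a rise of 0.50 (0.24 to 0.76, limma adjusted p = 0.00277). The age difference in 21% O2 also differed in sign. It was 0.38 in scrambled mice and 0.32 in antimiR-34a mice on the brighter probe (limma adjusted p = 5.38e-05 and 0.000311), and -0.26 and -0.46 on the dimmer (limma adjusted p = 0.0522 and 0.00102). The oxygen difference changed with age by -0.59 on the brighter probe and by 0.57 on the dimmer (limma adjusted p = 4.28e-05 and 0.00558). No direction is therefore given for Nr3c1 as a gene. The probes gave a like sign with oxygen at P5 in antimiR-34a mice, where it fell by 0.18 and by 0.31 (limma adjusted p = 0.036 and 0.0199). On the brighter probe that call was lost when any of 6 single arrays was left out (differences from -0.23 to -0.14 over all arrays left out). These were mice 2, 3 and 4 of the 21% O2 group and mice 1, 3 and 4 of the 85% O2 group. The call was also lost with the replicate number as a block (limma adjusted p = 0.0537) and with normexp (limma adjusted p = 0.0742). It was lost too with no filter on dim probes and with only the compared groups (limma adjusted p = 0.0707 and 0.0746).

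**Figure D4:**
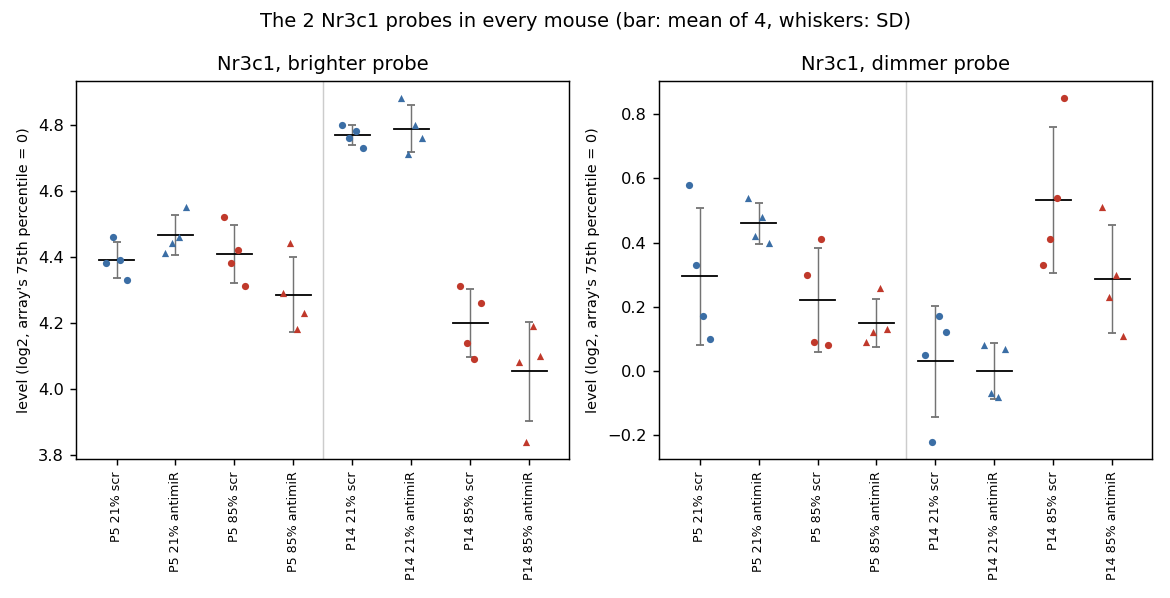
Level of the brighter Nr3c1 probe (left) and the dimmer one (right) in each mouse (y axis, log2 intensity, where 0 is the array's 75th percentile) by group (x axis), coloured and marked as above. Bars are means and whiskers SD of 4 mice. At P14 the 85% O2 scrambled group is below the 21% O2 group on the left and above it on the right.

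Much of the transcriptome differed with oxygen and with age, so the counts of the 10 genes are read against all tested probes. With oxygen in scrambled mice 6 of 10 were called at P5 (5 higher, 1 lower), against 43.9% of all tested probes (17.4% higher, 26.5% lower). By the methods' t-test with the same adjustment 1 of 10 was called there, and Fkbp5, Sgk1, Cebpd, Pdk4 and Mt1 lost their calls (adjusted p from 0.0525 to 0.104). At P14, 7 of 10 were called (5 higher, 2 lower), against 60.9% of all probes (28.2% higher, 32.7% lower). In antimiR-34a mice at P5, 5 of 10 were called (3 higher, 2 lower), against 46.6% of all probes (17.1% higher, 29.5% lower), and 3 by the methods' t-test. The shares higher were above those over all probes, but on 10 genes chosen for a measured pattern they are a description. The median log2 oxygen difference of the 10 was 0.58 at P5 and 0.64 at P14 in scrambled mice, against -0.07 over all probes at each age.

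With age, 8 of 10 were called in each antimiR group in 21% O2 (5 higher, 3 lower), against 51.4% of all probes in scrambled mice (27.7% higher, 23.8% lower) and 58% in antimiR-34a mice (29.7% higher, 28.3% lower). In scrambled mice in 85% O2, 5 were called (4 higher, 1 lower), against 42.1% (25.6% higher, 16.5% lower), and 3 by the methods' t-test. There Hsd11b1 rose by 0.97, Zbtb16 by 1.64, Cebpd by 0.84 and Sgk1 by 0.66, and the brighter Nr3c1 probe fell by 0.20 while the dimmer one rose by 0.31 (limma adjusted p = 0.0187 and 0.0284). The call of the brighter probe was lost without mouse 1 of the P5 group or mouse 2 or 3 of the P14 group (limma adjusted p from 0.0533 to 0.0754), with only the compared groups in the fit (limma adjusted p = 0.0733) and by the methods' t-test. The interaction of oxygen and age was called for 4 of 10 (2 higher, 2 lower), which were Fkbp5, Mt1, Hsd11b1 and Nr3c1, against 40.8% of all probes (22.8% higher, 18% lower).

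No gene of the set was called for antimiR-34a in the comparisons that could be tested. The counts were 0 of 10 in 21% O2 at P5, 0 of 10 in 85% O2 at P5 and 0 of 10 in 21% O2 at P14 by limma, and 0 by the methods' test. At an unadjusted p under 0.05 the counts were 0, 3 and 0 of 10. Over all probes 0.136% were called in 21% O2 at P5 (0.12% higher, 0.0167% lower), 0.0639% in 85% O2 at P5 (0.0445% higher, 0.0195% lower) and 0% in 21% O2 at P14, and 6322, 4717 and 4033 probes had an unadjusted p under 0.05. The interaction of antimiR-34a and oxygen at P5 was called for 0 of 10, with 3 at an unadjusted p under 0.05, against 0.0556% of all probes (0.0111% higher, 0.0445% lower) and 3894 at an unadjusted p under 0.05. The intervals show what could have been missed. For Fkbp5 the antimiR-34a difference at P5 was 0.02 (-0.20 to 0.23) in 21% O2 and -0.08 (-0.30 to 0.14) in 85% O2, whereas for Zbtb16 in 85% O2 it was -0.74 (-1.42 to -0.06). At P14 in 21% O2, every antimiR-34a mouse was below every scrambled mouse for Hsd11b1 (3.72 to 3.82 against 3.93 to 4.18) and for Tsc22d3 (4.09 to 4.10 against 4.22 to 4.43). These differences of -0.26 and -0.19 did not pass (limma adjusted p = 0.55 and 0.579). Over 19125 genes, 5.72% did not overlap in this comparison, and the antimiR-34a mice were the lower in 4.45%.

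In mouse 2 of the P14 85% O2 antimiR-34a group, Fkbp5 was 2.38 and the other 3 mice stood at -0.02, -0.01 and -0.02. Mt2 was 7.28 against 4.22, 4.38 and 4.18, Mt1 was 7.05 against 5.59, 5.65 and 5.77, and Zbtb16 was 2.51 against 0.07, -0.07 and -1.11. These 4 genes were more than 2-fold above the next mouse of the group, by 5.26-fold for Fkbp5, 7.47-fold for Mt2, 2.42-fold for Mt1 and 5.42-fold for Zbtb16. For Fkbp5, Mt1, Mt2, Cebpd and Hsd11b1 this mouse was also the highest of all 32. Zbtb16 reached 2.51 in mouse 3 of the P14 85% O2 scrambled group too, to 2 decimals. The mouse was the highest of its group for 9 of the 10 genes, all but Nr3c1, which was the lowest on the brighter probe (3.84 against 4.08 to 4.19).

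Of 19137 genes measured in the 4 mice of that group, 0.951% were at least 2-fold above the other 3 in mouse 2 and 1.26% at least 2-fold below. By the size of the gap, Mt2 ranked 3, Zbtb16 9, Fkbp5 10 and Mt1 96. The 10 widest gaps were those of Ereg, Pla1a, Mt2, Serpinb2, Il11, Tnfsf18, Sprr1a, Phgr1, Zbtb16 and Fkbp5. Serpinb2 was above background in that mouse and in 0 of the other 3, so its gap is measured against background. Ereg, a growth factor of the EGF family, was 1.88 in that mouse and no higher than -1.32 in any other of the 32. Il11, a cytokine of the IL-6 family, was 2.28 against at most -0.40.

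Over all 19137 genes, 33.5% were highest of the group in that mouse and 29.7% were lowest, so counts of genes highest there are read against these shares. Of 12 other genes known as glucocorticoid targets, 10 were highest of the group in that mouse, and 1 was at least 2-fold above the rest. It was Errfi1 (4.98 against 3.43 to 3.46), a feedback inhibitor of the EGF receptor. Klf9 was 3.18 against 2.61 to 2.73 and Per1 was 4.68 against 3.84 to 4.35, both below the highest level reached in the other groups (3.39 and 5.44). The 10 acute phase and IL-6 genes were all highest in that mouse, and 3 of them at least 2-fold. Timp1 was 5.79 against 3.27 to 3.81, Il6 was 1.02 against -1.17 to -0.44, and Orm1 was -2.88 against -6 to -4.72, above background on 3 of the 4 arrays. Of 8 zinc and metal handling genes 5 were highest, with the zinc importer Slc39a14 at 1.98 against 0.27 to 0.69. The mouse was the highest in 4 of 11 receptor partners, 3 of 10 genes of fasting and fat oxidation and 4 of 10 clock genes.

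**Figure D5:**
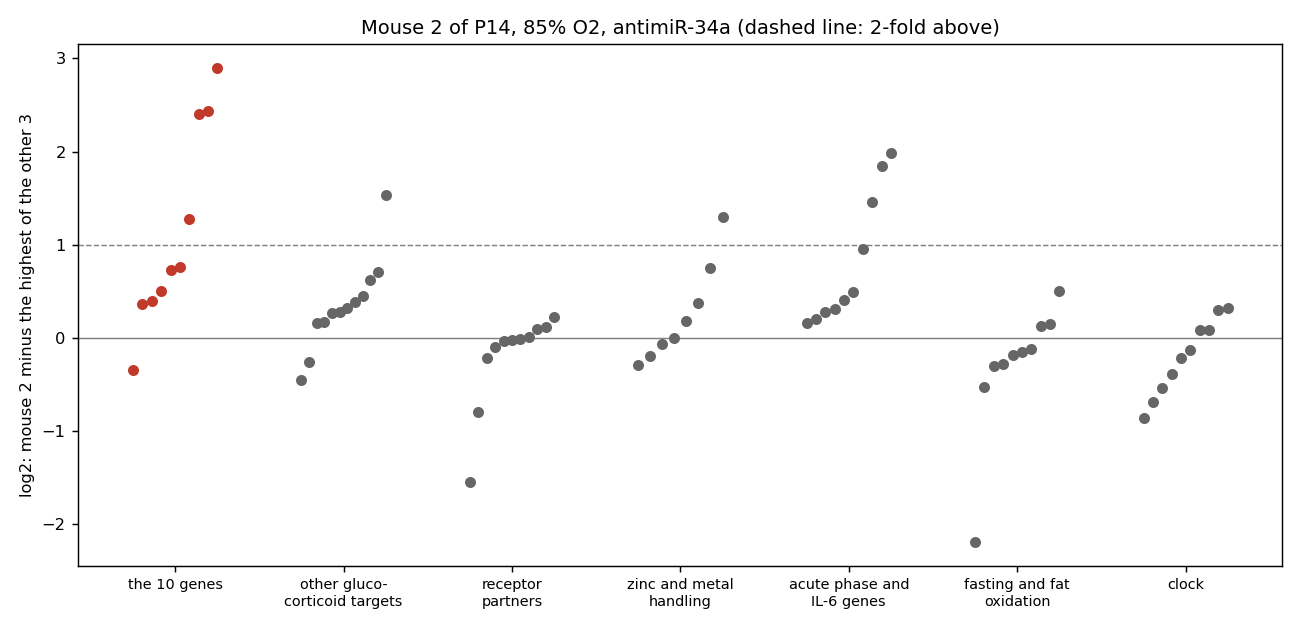
Gap between mouse 2 of the P14 85% O2 antimiR-34a group and the highest of the other 3 mice of that group (y axis, log2), for the 10 genes and for the genes of 6 lists (x axis). Each point is a gene, and the dashed line marks 2-fold. Of the 10 genes 4 lie above that line, and of the 10 acute phase and IL-6 genes 3 do.

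Markers of other cells in that mouse were as follows. Its summed neutrophil marker level was 5.59 against 3.83 to 4.43 in the rest of its group, and within the range of 4.79 to 5.8 of the P14 85% O2 scrambled mice. Of the 8 markers 5 were highest of the group in that mouse, among them S100a9 (5.18 against 3.34 to 3.98) and Mmp8 (-0.53 against -2.88 to -2.46). Ltf was within the range of the others (-1.16 against -1.53 to -0.03) and Camp was below them (-2.2 against -1.92 to -1.53). Ngp, at -5.82, was not above background there. Of the 10 lung markers 5 were the highest of the group in that mouse, among them the fibroblast marker Pdgfra (2.28 against 0.52 to 0.84) and Aqp5 of type I alveolar cells (6.39 against 5.28 to 5.82), and Sftpc and Foxj1 were the lowest. The liver and adipocyte levels were -1.94 and -3.15, the former the lowest of the group, so neither tissue stood out. The part of neutrophils and lung cell types in the values of this mouse was not tested.

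The comparison of antimiR-34a with scrambled antimiR in 85% O2 at P14 had no test and is given as a description, with and without that mouse. With it, the difference from scrambled mice was 0.12 for Fkbp5, 0.13 for Mt2 and 0.04 for Mt1, and the groups overlapped. Without it, the 3 remaining antimiR-34a mice lay below all 4 scrambled mice for each of these, with differences of -0.47 for Fkbp5, -0.63 for Mt2 and -0.30 for Mt1. Zbtb16 moved from -1.14 to -1.86, Cebpd from -0.27 to -0.48 and Pdk4 from -0.74 to -0.96, again without overlap once the mouse was left out. Sgk1 did not overlap either way, at -0.50 with the mouse and -0.62 without. Tsc22d3, Nr3c1 and Hsd11b1 overlapped either way. Over all genes 16% did not overlap without the mouse, with the antimiR-34a mice below in 8.81%, and 9.2% did not overlap with it. The genes were picked on that mouse, so nothing is read from how many did not overlap without it. Mouse 4, which carried the adipocyte markers, is among the 3 that remain. Without mice 2 and 4, an alternative chosen after seeing the data that leaves 2 mice, the difference was -0.48 for Fkbp5, -0.59 for Mt2, -0.35 for Mt1 and -1.49 for Zbtb16, without overlap.

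The oxygen difference of the metallothioneins in antimiR-34a mice at P14 was seen with and without that mouse. Mt2 was higher in 85% O2 by 2.19 with it and by 1.44 without it, and Mt1 by 1.97 and 1.62, with no overlap in any of these. Fkbp5 was higher by 0.78 with it and by 0.18 without it, also without overlap. Cebpd was higher by 0.98 and by 0.77, and Zbtb16 by 0.45 with it but at -0.27 without it. Zbtb16 was at 0.94 without mouse 4 and at 0.11 without both, so its sign depended on these mice. Without both mice Mt2 was higher by 1.48, Mt1 by 1.57 and Fkbp5 by 0.18, without overlap. Hsd11b1 was higher by 0.50 and by 0.34, without overlap either way, where the scrambled difference was -0.11. Sgk1 was at -0.09 with the mouse and at -0.20 without it, when the groups did not overlap, where the scrambled difference was 0.49. Pdk4 was at -1.12 and -1.34 and overlapped either way, where the scrambled difference was -0.02. Tsc22d3 was at -0.22 and -0.33 and overlapped only with the mouse, where the scrambled difference was -0.55. The brighter Nr3c1 probe was at -0.73 and -0.66, without overlap, where the scrambled difference was -0.57. Whether these differences differed between antimiRs was not tested.

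The genes were picked on mouse 2 of that group, so the other mice are given as values and not as a contrast with it. Mouse 3 of the P5 21% O2 antimiR-34a group was the highest of its group in 8 of the 10 genes, none by 2-fold, with Zbtb16 at 0.73 against -0.69 to -0.21 and Fkbp5 at 1.16 against 0.67 to 0.83. In the mice outside the P14 85% O2 antimiR-34a group, at most 1 of the 10 genes stood 2-fold above or below the other 3 of its group.

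From mouse to mouse, Fkbp5 had its highest correlations within the set with Zbtb16, Tsc22d3 and Cebpd. Over the same 28 mice r was 0.62, 0.57 and 0.40 with these, and 0.10 with each of Mt1 and Mt2. Without the 2 farthest mice, mouse 3 of the P14 85% O2 scrambled group and mouse 3 of the P5 21% O2 antimiR-34a group, the first 3 were 0.36, 0.31 and 0.30. The 5 genes outside the set most like Fkbp5 were Klf15 (r = 0.77), Pmvk (0.75), Sqle (0.74), Psma4 (0.74) and 1700060J05Rik (0.70). Without those mice these were 0.65, 0.58, 0.67, 0.68 and 0.52, in another order. Klf15 encodes a factor that glucocorticoids are known to induce, and Pmvk and Sqle encode enzymes of cholesterol synthesis.

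The counts over the wider lists are read against the shares of all probes called. For oxygen in scrambled mice, 17.4% of all probes rose and 26.5% fell at P5. The P14 shares were 28.2% and 32.7%. With antimiR-34a at P5 they were 17.1% and 29.5%. Of the 12 other glucocorticoid targets, 5 rose and 1 fell with oxygen in scrambled mice at P5, and 5 rose and 2 fell at P14. With antimiR-34a, 4 rose and 3 fell at P5. At P14 the widest were Lcn2, which encodes lipocalin 2 (2.79, limma adjusted p = 8.71e-10), Fam107a (-2.52, limma adjusted p = 0.000376) and the clock gene Per1 (1.77, limma adjusted p = 2.74e-05). Lcn2 is also in the acute phase list and Per1 in the clock list. Klf9, a factor of the same family as Klf15, rose by 0.84 with oxygen at P14 and by 1.34 with age in 21% O2 (limma adjusted p = 9.45e-05 and 9.54e-10), while Klf15 fell by 0.48 with oxygen at P14 (limma adjusted p = 0.00877). With age in 21% O2, 8 of the 12 rose in scrambled mice and none fell, where 27.7% of all probes were higher and 23.8% lower.

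The acute phase and IL-6 genes had the widest oxygen differences of the lists. In scrambled mice 6 of 9 measured rose at P5 and 9 of 10 at P14, and none fell, against 17.4% and 28.2% of all probes higher. With antimiR-34a, 5 of 9 rose and none fell at P5. At P14 serum amyloid A3 (Saa3) rose by 6.53 (limma adjusted p = 8.24e-08), Il6 by 4.62 (limma adjusted p = 7.43e-07) and Timp1 by 3.28 (limma adjusted p = 8.29e-06). Il6 was above background on 3 of the 4 arrays in 21% O2. The median log2 difference of this list was 0.72 at P5 and 1.96 at P14.

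Of 11 receptor partners, 2 rose and none fell with oxygen in scrambled mice at P5, and 6 rose and 2 fell at P14, against 17.4% and 28.2% of all probes higher. Among antimiR-34a mice, 3 rose and 1 fell at P5. At P14 the p23 co-chaperone gene Ptges3 rose by 0.90 and Stip1, which encodes the adaptor between heat shock proteins, by 0.81 (limma adjusted p = 1.01e-05 and 4.81e-06). Hsd11b2, whose enzyme inactivates the hormone that Hsd11b1 makes, was -3.94 ± 0.17 (SD, n = 4) in 21% O2 and was above background on only 1 of the 4 arrays in 85% O2, where it read -6.89 ± 0.91 (SD, n = 4). From P5 to P14 in 21% O2, Ptges3 fell by 0.53 and Stip1 by 0.66 in scrambled mice (limma adjusted p = 4.99e-05 and 5.16e-08).

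Clock and fasting genes were mixed. Their counts stand against 17.4% of all probes higher and 26.5% lower at P5 in scrambled mice, and 28.2% and 32.7% at P14. Of 10 clock genes 6 rose and none fell with oxygen in scrambled mice at P5, led by Dbp (1.36, limma adjusted p = 1.57e-05) and Nr1d1 (1.06, limma adjusted p = 0.00011), and 5 rose and 2 fell at P14, led by Nr1d1 (2.02, limma adjusted p = 1.06e-07). Among antimiR-34a mice, 5 rose and 2 fell at P5. The hour of killing is not given in the sources used here. Of 10 genes of fasting and fat oxidation 2 rose at P5, Acot1 (0.70, limma adjusted p = 3.14e-05) and Plin2 (0.55, limma adjusted p = 0.000689), and 2 rose and 2 fell at P14. Among antimiR-34a mice, 4 rose and none fell at P5. Ppara fell by 1.31 at P14 (limma adjusted p = 0.000572), and adipocyte markers were higher in the 21% O2 group of that comparison. None of the genes of the 6 lists was called for antimiR-34a in either oxygen level at P5 or in 21% O2 at P14, and 1 clock gene was called lower in the interaction of antimiR-34a and oxygen at P5.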

How the data were processed

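Lung RNA of 32 mice was hybridised to Agilent whole-genome arrays of 1 colour, 1 array a mouse. Per the file headers, the deposited intensity values were extracted with Agilent Feature Extraction 10.7.3.1, which subtracts background and corrects trends within the array. The authors also deposited log2 values of the same arrays, normalized between arrays, which correlated with the values used here with r from 0.997 to 1 and served as an alternative.

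From the processed intensities, log2 was taken, each array's 75th percentile was subtracted, outlier spots (0.211%) were left out and repeated spots were averaged. Tested probes were those called well above background in each of the 4 mice of some group. limma 3.58.1 in R 4.3.3 gave two-sided p-values adjusted by Benjamini-Hochberg over 35982 probes at P5, 38455 at P14 and 39160 across ages. The number of arrays limits the precision. The script was tested on simulated data. Replicates are separate mice, numbered as in the labels.

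The genes and lists were chosen with earlier results of these data known. Named were the 10 genes, the 3 called genes of largest change in a list, the 5 genes most like Fkbp5 and Mt2, and the 10 widest gaps in 1 mouse. Other list genes given for that mouse, and the oxygen values of Klf9 and Klf15, were chosen after their values were seen. Because that mouse chose the set, comparisons with its group have no test. Promoters came from RefSeq (GRCm38.p6), while the probes are in mm9, and no position was converted. Alternatives changed the background correction, the normalization, the filter, the probe, the arrays in the fit, their weights, a replicate block and the test, for which the methods name a t-test with unequal variances. Proteins were not analysed here, nor were promoters of Zbtb16, Cebpd and Nr3c1.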

Additional observations from a re-analysis of the deposited data

Results flagged for a closer look

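Among 80 groups of 4 mice (10 genes in 8 groups), 7 held a single mouse that stood apart. Of these, 3 were mouse 2 of the P14 85% O2 antimiR-34a group, on which the genes were picked, and count for nothing here. The other 4 are near 1 group in 20, the rate of this rule for unrelated groups. The genes share mice, so the groups are not unrelated, and chance was not tested. Mouse 3 of the P5 85% O2 scrambled group, for example, was the lowest of its group for Mt2 too, at 3.58. In mouse 2 of the P14 85% O2 antimiR-34a group, Fkbp5 was 2.38 (others -0.02 to -0.01), Mt1 was 7.05 (others 5.59 to 5.77) and Mt2 was 7.28 (others 4.18 to 4.38). Mt1 was 5.47 in mouse 3 of the P5 85% O2 scrambled group (others 6.39 to 6.56). Cebpd was 3.98 in mouse 1 of the P5 85% O2 scrambled group (others 4.59 to 4.63), 4.9 in mouse 4 of the P14 85% O2 scrambled group (others 5.4 to 5.46) and 4.15 in mouse 4 of the P14 21% O2 antimiR-34a group (others 4.01 to 4.02).

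In scrambled mice the oxygen difference changed between P5 and P14 for 4 genes by the test of the interaction. The change was 1.12 for Fkbp5 and -0.74 for Hsd11b1, and on their brighter probes 1.08 for Mt1 and -0.59 for Nr3c1. The dimmer Nr3c1 probe changed by 0.57, the other way. The dimmer Mt1 probe changed by 0.27 and did not pass (limma adjusted p = 0.758). The call of Fkbp5 was lost when any of 13 single arrays was left out. Each oxygen level at each age was on a slide of its own, so slide cannot be told apart from these changes.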

How the results depend on the processing

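Of the counts of genes called, 118 under other settings stayed within 1.5 times and 5 did not. By the methods' t-test, 1 in place of 6 genes was called for oxygen in scrambled mice at P5, 3 in place of 5 for oxygen in antimiR-34a mice at P5, and 3 in place of 5 with age in scrambled mice in 85% O2. At P5 in scrambled mice Fkbp5, Sgk1, Cebpd, Pdk4 and Mt1 lost their calls by that test, with adjusted p from 0.0525 to 0.104. It also lost the calls of Fkbp5 (adjusted p = 0.0571) and Nr3c1 (0.0924) for oxygen in antimiR-34a mice at P5. Zbtb16 lost its call by that test for oxygen in scrambled mice at P14 (0.0522), and Pdk4 with age in antimiR-34a mice in 21% O2 (0.196). With age in scrambled mice in 85% O2, Zbtb16 (0.0735) and Nr3c1 (0.0723) lost theirs. Fkbp5 gained a call by that test for oxygen in scrambled mice at P14 (adjusted p = 0.0309). For the interaction of oxygen and age, 2 in place of 4 were called with the mean of all probes of a gene, and 7 without the P14 85% O2 antimiR-34a group, an alternative chosen after seeing the data. With the mean of all probes, Nr3c1 turned direction, to -0.07 with age in antimiR-34a mice in 21% O2 and to 0.05 in scrambled mice in 85% O2, and its 2 probes move in opposite directions there. The members' tested differences with an unadjusted p under 0.05 or without overlap were followed through the settings. Counting each such difference under each setting, single arrays left out aside, 612 kept direction and call, 27 lost the call, 18 gained it and 2 turned. The cause of these changes was not tested.

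With 1 array left out, the count was 4 to 6 for oxygen in scrambled mice at P5, 4 to 6 in antimiR-34a mice at P5 and 6 to 8 in scrambled mice at P14. With age it was 7 to 8 in each antimiR group in 21% O2 and 4 to 6 in scrambled mice in 85% O2. For the interaction of oxygen and age it was 3 to 6, and for antimiR-34a 0 to 0 in each comparison and in the interaction with oxygen.

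Same-numbered mice did not deviate together in every case (r from -0.35 to 0.5), and the main fits did not pair the mice by number. This check cannot exclude a pairing of some of them, since litters are not given. With the replicate number as a block the count was 7 for oxygen in scrambled mice at P5, 5 in antimiR-34a mice at P5 and 7 in scrambled mice at P14. It was 8 in each antimiR group in 21% O2 and 6 in scrambled mice in 85% O2 with age, 5 for the interaction of oxygen and age, and 0 for antimiR-34a. With the block, the brighter Nr3c1 probe lost its call for oxygen in antimiR-34a mice at P5 (limma adjusted p = 0.0537), although the count there did not change.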
